A study of Mus musculus with 10 samples.

Results

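RNA levels of 10 genes that write, erase or bind DNA methylation and the Polycomb mark were followed in cultured natural killer cells (NKC) with and without the transcription factor Runx3. The genes were Dnmt1, Dnmt3a, Dnmt3b, Tet1, Tet2, Tet3, Ezh1, Ezh2, Suz12 and Eed, chosen by name among the 18194 genes that the array's gene table names. All 30 probe sets that carry 1 of these symbols, out of 45101 on the array, were examined. Splenic NKC came from individual Runx3 -/- (KO) and Runx3 +/+ (WT) mice of the ICR strain, aged 6 weeks and labelled male or female. They were enriched by negative selection, which the methods follow with a sort for DX5, and were grown for 7 days with mouse IL-15 or with 1000 u/ml human IL-2. The 4 groups were KO in IL-15 (2 arrays), WT in IL-15 (2 arrays), KO in IL-2 (3 arrays) and WT in IL-2 (3 arrays). The deletion is carried by the whole animal, so the cells also developed without Runx3. Each sample was a bulk culture, in which fewer cells of a type and less RNA per cell cannot be told apart.

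DNA methyltransferases add a methyl group to cytosine, mostly where it is followed by guanine. Dnmt1 copies the pattern onto new strands after replication, while Dnmt3a and Dnmt3b methylate unmarked sites. Tet1, Tet2 and Tet3 are dioxygenases that oxidise methylcytosine and thereby start its removal. Polycomb repressive complex 2 (PRC2) methylates lysine 27 of histone H3 and keeps developmental genes silent. Ezh2 and Ezh1 are its alternative catalytic subunits, Suz12 is a scaffold of the complex, and Eed binds the finished mark. In lymphocytes Ezh2 and Dnmt1 are typical of dividing cells, and Ezh1 is also present in resting ones.

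Values are log2 signals per probe set, so that a difference of 1 is a doubling on the linear scale. The level of a gene is that of its probe set with the highest mean over the 10 arrays, and levels of different probe sets were not set against each other, since probe sets differ in how brightly they bind. Array medians lay between 3.20 and 3.37. Testing was limited to genes with a level of log2 5 or more in 2 or more arrays, of which there were 9391, among them 8 of the 10 examined. A gene was called, and is said to have risen, fallen or changed, at a Benjamini-Hochberg adjusted p under 0.05 over all 9391 genes and a change of at least 1.5-fold. All p-values of genes come from limma and are adjusted unless stated otherwise.

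Facts of the whole series bear on every value below. The deposited values had been corrected so that a KO and a WT array with the same number and cytokine mirror each other around a shared mean, and KO effects therefore rest on 2 pairs in IL-15 and on 3 pairs in IL-2. Of the 2 probe sets for Runx3, 1440275_at lay at 11.35 to 11.41 in KO against 12.44 to 12.51 in WT in IL-15, and at 10.66 to 11.41 in KO against 11.31 to 12.06 in WT in IL-2, while 1421467_at was at or below 2.81 throughout. Whether these probe sets lie within the deleted part is not given in the sources used here, so they do not check the labels. The brightest probe set of Xist, which is transcribed from the inactive X chromosome of females, read 14.46 to 14.66 in KO and 14.28 to 14.48 in WT arrays in IL-15, against 4.64 to 5.28 in KO and 4.74 to 5.37 in WT arrays in IL-2. Sex of the mice and cytokine therefore cannot be told apart in this series. NKC markers were present throughout: 10 of the 11 with a probe set were tested, with Itga2, the gene of the DX5 antigen, below the limit. Their summed signal was lower in KO in both cytokines. It was log2 16.89 to 16.93 in KO against 17.26 to 17.30 in WT in IL-15. In IL-2 it was 16.82 to 17.06 in KO against 17.11 to 17.37 in WT. Such a sum follows its brightest genes, and the markers did not fall as a set. In IL-15, 0 of the 10 tested were called, against 1.3% of all tested genes, with 3 differences positive and a median of -0.30. In IL-2, 2 were called higher and 1 lower, against 10.5% and 9.17% of all tested genes. There 5 differences were positive, with a median of -0.01. Markers of mast cells and basophils moved with genotype. Their summed signal was log2 6.04 to 6.73 in KO against 9.79 to 11.1 in WT in IL-15, and 6.92 to 8.40 in KO against 12.5 to 14.6 in WT in IL-2, although Fcer1a, Ms4a2, Hdc and Gata2 stayed below the limit. Of the granulocyte list Ctsg alone was tested, with S100a8, S100a9, Elane and Mpo below the limit. The list summed to log2 4.56 to 4.83 in KO against at least 9.35 in WT in IL-15. In IL-2 it summed to 5.40 to 7.26 in KO against 11.1 to 13.9 in WT. The B cell list lay at log2 10.8 to 11.7 in KO against 9.83 to 10.7 in WT arrays in IL-15, and at 11.2 in KO against 8.77 to 8.89 in WT arrays in IL-2, with Cd79a, Cd79b, Ms4a1 and Pax5 below the limit. Whether these signals came from such cells or from NKC was not tested, and neither was their part in the differences below.

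The maintenance methyltransferase Dnmt1 had the largest difference between genotypes of the 8 tested members in both cytokines. In IL-15 its level was 12.36 and 12.12 in KO against 10.69 and 10.92 in WT arrays. In IL-2 it was 12.67, 12.34 and 12.93 in KO against 10.97, 11.31 and 10.71 in WT arrays. All 5 KO arrays thus lay above all 5 WT arrays, and the groups did not overlap in either cytokine. The KO minus WT difference was 1.44 ± 0.33 in IL-15 (SD, 2 pairs, adjusted p = 0.137), which was 2.71-fold but did not pass. In IL-2 Dnmt1 rose by 1.65 ± 0.60 (SD, 3 pairs, adjusted p = 0.0135), or 3.15-fold, with a 95% interval of 0.93 to 2.37. It was the only one of the 8 tested members to be called for genotype: 0 of 8 were called in IL-15 and 1 of 8 in IL-2. Of all tested genes 1.3% were called in IL-15 (0.458% higher and 0.841% lower in KO cells) and 19.7% in IL-2 (10.5% higher and 9.17% lower), so that 1 of 8 is near the background. Without pair 1 the adjusted p of Dnmt1 in IL-2 was 0.08, with a difference of 1.63, and without the limit of log2 5 it was 0.0542.

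All 3 probe sets of Dnmt1 gave the same picture. The gene value came from 1435122_x_at, whose suffix marks a set with some probes that can bind other transcripts as well. The set 1447877_x_at carries the same suffix. It read 10.35 and 10.36 in KO against 8.85 and 8.84 in WT arrays in IL-15. In IL-2 it read 10.98, 10.65 and 11.21 in KO against 9.16, 9.49 and 8.93 in WT arrays. The probe set 1422946_a_at read 11.30 and 10.96 in KO against 9.98 and 10.31 in WT arrays in IL-15, and 11.66, 11.31 and 11.98 in KO against 10.10, 10.45 and 9.78 in WT arrays in IL-2. In a fit over single probe sets, the 3 differed by 1.55 to 1.75 between KO and WT in IL-2, with adjusted p of 0.0133 to 0.0266, and by 0.99 to 1.51 in IL-15, with adjusted p of 0.146 to 0.392. All 3 were called in IL-2, against 2924 of all 17729 tested probe sets, and 0 in IL-15. The probe sets read the same RNA samples and are not replicates of each other.

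The start region of Dnmt1 is shown for its E2F letters, E2F proteins being known to drive genes of DNA replication. RefSeq (GRCm38.p6) gave 14 promoters for the 10 genes, and the 250 bases before each start were searched on both strands for the letters of E2F sites (TTTCGCGC, TTTGGCGC, TTTCCCGC, TTTGCCGC) and of RUNX sites (the hexamer TGTGGT, or TGTGGC, or TGCGGT, or else TGCGGC). E2F letters were found in 2 of the 14, 1 of the 3 Dnmt1 promoters and that of Suz12, and in 1.86% of 32851 promoters of the reference. RUNX letters were found in 7 of the 14 and in 38% of all promoters. A match describes these letters only. The Dnmt1 promoter with E2F letters also held RUNX letters (TGCGGC, 8 to 3 bases before its start). These RUNX letters lie outside the stretch with the E2F letters. The stretch of Dnmt1 lies at chr9:20952831-20952860 on the minus strand, 237 to 208 bases before its start, with the E2F letters, read on the opposite strand, in capitals.
Dnmt1: cccaattggtttccgcgcGCGCGAAAaagc

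Of the de novo methyltransferases, Dnmt3b read higher in KO arrays and Dnmt3a did not pass in either cytokine. In IL-2, 1 of the 2 Dnmt3b probe sets was called, against 2924 of all 17729 tested probe sets. Dnmt3b read 9.25 and 9.15 in KO against 8.40 and 8.51 in WT arrays in IL-15. In IL-2 it read 9.55, 10.38 and 10.53 in KO against 9.49, 8.66 and 8.51 in WT arrays. Each KO array lay above each WT array of its cytokine, but in IL-2 pair 1 differed by 0.06, against 1.72 and 2.02 in the other pairs. The KO minus WT difference was 0.74 ± 0.15 in IL-15 (SD, 2 pairs, adjusted p = 0.603) and 1.26 ± 1.06 in IL-2 (SD, 3 pairs, adjusted p = 0.0697, 95% interval 0.31 to 2.22), and neither passed. Without pair 1 the difference in IL-2 was 1.87 and passed (adjusted p = 0.0391). The second probe set of Dnmt3b, 1418351_a_at, had its 3 pairs closer together. It read 8.46, 8.14 and 8.06 in KO against 6.43, 6.74 and 6.83 in WT arrays in IL-2, and rose by 1.55 ± 0.42 (SD, 3 pairs, adjusted p = 0.0203 over single probe sets). In IL-15 it read 7.53 and 7.99 in KO against 6.67 and 6.21 in WT arrays, which differed by 1.32 ± 0.64 (SD over 2 pairs, adjusted p = 0.209 over single probe sets). The call for Dnmt3b thus depended on which probe set stood for the gene.

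The Dnmt3b promoter is shown because both its probe sets, like those of Dnmt1, read higher in each KO array than in each WT array of the same cytokine. The bases chr2:153649199-153649448, on the plus strand of GRCm38.p6 (RefSeq), are the 250 before the annotated start, with RUNX letters (TGCGGC, 79 to 74 bases before the start) in capitals. No E2F letters occurred in them.
Dnmt3b: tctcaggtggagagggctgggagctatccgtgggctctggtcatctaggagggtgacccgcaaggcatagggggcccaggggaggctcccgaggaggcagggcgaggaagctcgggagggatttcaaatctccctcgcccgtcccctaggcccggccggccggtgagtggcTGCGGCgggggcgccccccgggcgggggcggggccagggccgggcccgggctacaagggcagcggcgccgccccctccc

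Dnmt3a read 9.19 and 9.37 in KO against 8.99 and 8.81 in WT arrays in IL-15, and 10.21, 9.71 and 9.59 in KO against 9.32, 9.82 and 9.94 in WT arrays in IL-2. The genotypes overlapped in IL-2 and were separate in IL-15. Its KO minus WT difference was 0.38 ± 0.25 in IL-15 (SD, 2 pairs, adjusted p = 0.764) and 0.14 ± 0.66 in IL-2 (SD, 3 pairs, adjusted p = 0.777, 95% interval -0.60 to 0.88). The 5 probe sets of Dnmt3a disagreed in direction, with differences of -0.48 to 0.47 in IL-15 and -0.38 to 0.74 in IL-2, and 0 of them passed in either cytokine.

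**Figure D1:**
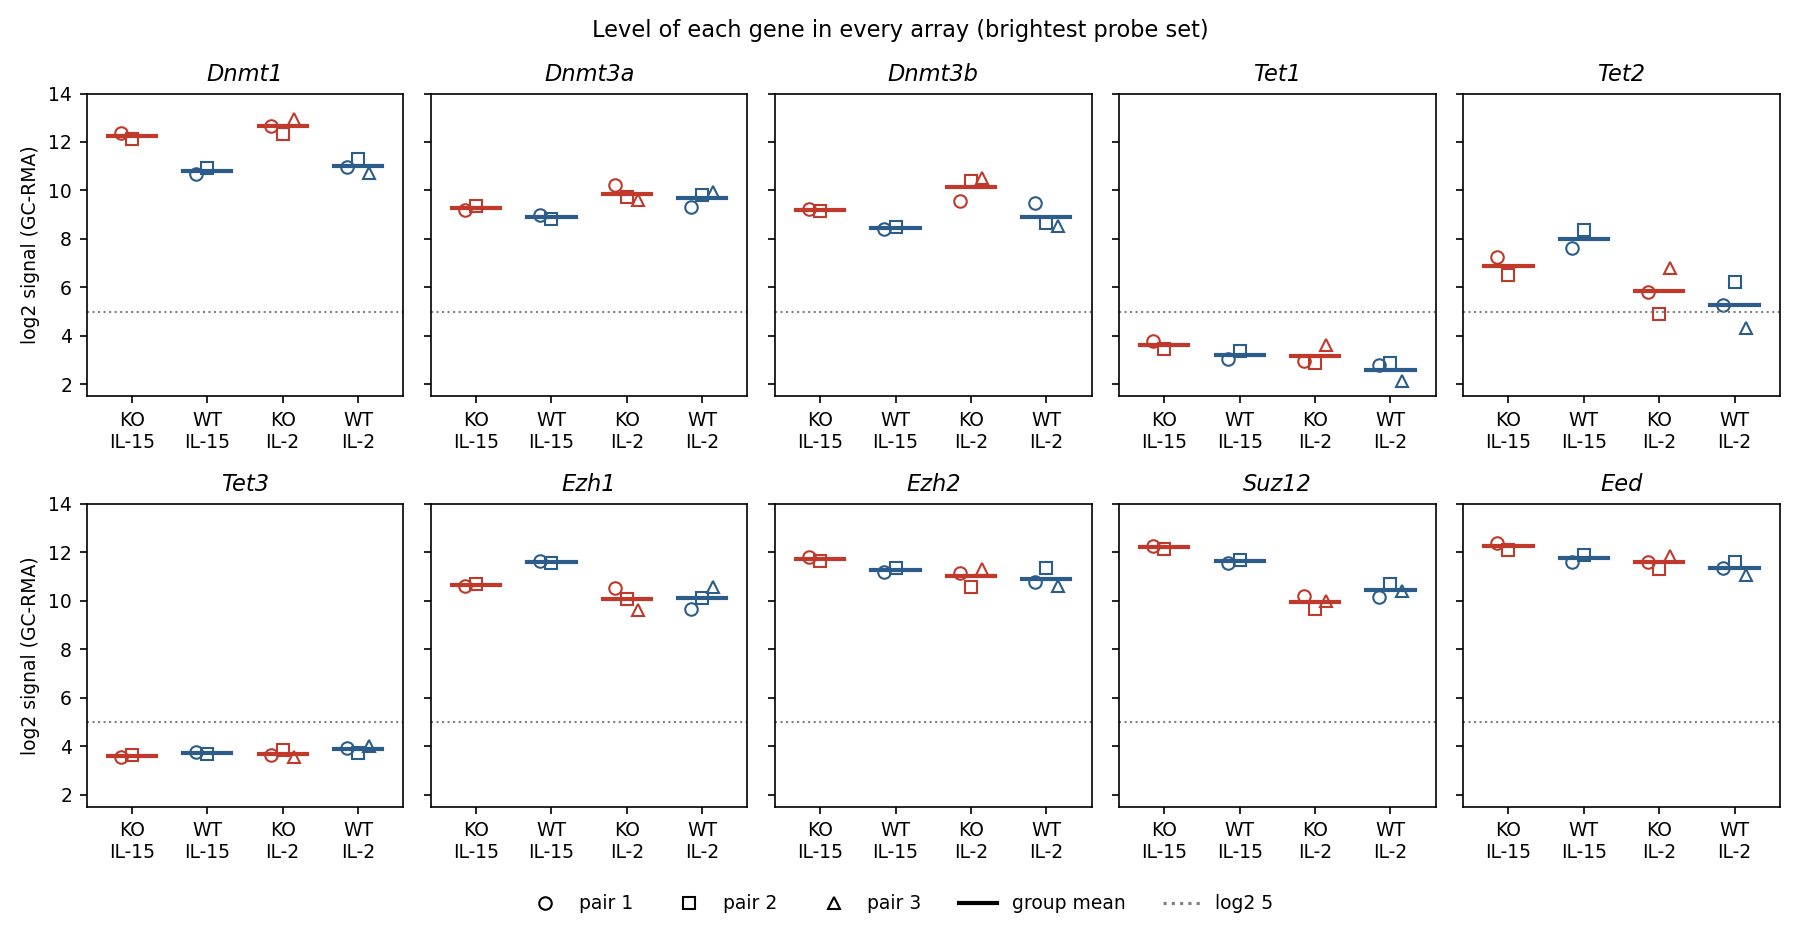
Level of each of the 10 genes (log2 signal of its brightest probe set, vertical axis) in every array of the 4 groups, with KO in red, WT in blue, a bar at the group mean and 1 symbol per numbered pair. Dnmt1 lies between 12.12 and 12.93 in all KO arrays and between 10.69 and 11.31 in all WT arrays, whereas Tet1 and Tet3 stay under the dotted line at log2 5.

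Of the TET dioxygenases, only Tet2 was bright enough to be tested. The highest value of any of the 4 Tet1 probe sets in any array was 3.80, and the single Tet3 probe set lay at or below log2 4. A signal this dim does not separate a low RNA level from none. The Tet2 probe set 1438781_at read 7.26 and 6.50 in KO against 7.60 and 8.37 in WT arrays in IL-15, and 5.83, 4.89 and 6.79 in KO against 5.28, 6.21 and 4.31 in WT arrays in IL-2. Both KO arrays were below both WT arrays in IL-15, while the genotypes overlapped in IL-2. The KO minus WT difference was -1.10 ± 1.08 in IL-15 (SD, 2 pairs, adjusted p = 0.662) and 0.57 ± 1.90 in IL-2 (SD, 3 pairs, adjusted p = 0.588), the widest spread between pairs among the tested members. The other Tet2 probe set, 1455300_at, stayed between 5.15 and 5.70 in all 10 arrays.

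The 4 core genes of PRC2 did not pass the test for genotype in either cytokine. Ezh2 read 11.81 and 11.63 in KO against 11.18 and 11.36 in WT arrays in IL-15, and 11.13, 10.56 and 11.32 in KO against 10.77, 11.34 and 10.59 in WT arrays in IL-2. Its difference was 0.45 ± 0.25 in IL-15 (adjusted p = 0.737, 95% interval -0.53 to 1.44) and 0.10 ± 0.78 in IL-2 (adjusted p = 0.856, 95% interval -0.70 to 0.91). Its paralogue Ezh1 read 10.61 and 10.70 in KO against 11.65 and 11.56 in WT arrays in IL-15, and 10.51, 10.08 and 9.60 in KO against 9.66, 10.09 and 10.57 in WT arrays in IL-2. Ezh1 was thus lower in both KO arrays in IL-15, by 0.95 ± 0.14 (adjusted p = 0.429), while in IL-2 the pairs went both ways with a mean of -0.04 ± 0.91 (adjusted p = 0.946). The other 3 Ezh1 probe sets were dim and stayed under log2 5.

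Suz12 read 12.27 and 12.13 in KO against 11.56 and 11.69 in WT arrays in IL-15, where every KO array was above every WT array. In IL-2 it read 10.20, 9.68 and 9.98 in KO against 10.17, 10.70 and 10.40 in WT arrays, and the genotypes overlapped. The KO minus WT difference was 0.57 ± 0.19 in IL-15 (SD, 2 pairs, adjusted p = 0.558) and -0.47 ± 0.53 in IL-2 (SD, 3 pairs, adjusted p = 0.277). Its other bright probe sets did not repeat this picture. In IL-15 the genotypes overlapped in both 1427253_s_at and 1452364_at. In IL-2, 1452364_at read 8.35, 7.84 and 8.32 in KO against 8.60, 9.11 and 8.63 in WT arrays, without overlap. Of the 5 tested Suz12 probe sets, 0 were called for genotype in either cytokine. Eed read 12.40 and 12.10 in KO against 11.60 and 11.89 in WT arrays in IL-15, and 11.58, 11.30 and 11.85 in KO against 11.33, 11.61 and 11.07 in WT arrays in IL-2. Its difference was 0.50 ± 0.42 in IL-15 (adjusted p = 0.639) and 0.24 ± 0.54 in IL-2 (adjusted p = 0.601).

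Over the 8 tested members, the median KO minus WT difference was 0.48 in IL-15, against -0.01 over all tested genes, and 0.19 in IL-2, against 0.11. In each cytokine 6 of the 8 differences were positive. In IL-15 the arrays of KO and WT were separate for all 8 members, 6 higher and 2 lower in KO, but with 2 mirrored pairs 31.7% of all genes were separate and higher and 32.9% separate and lower. In IL-2 they were separate for 2 members, Dnmt1 and Dnmt3b, both higher in KO, against 31.1% of all genes higher and 23.2% lower.

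**Figure D2:**
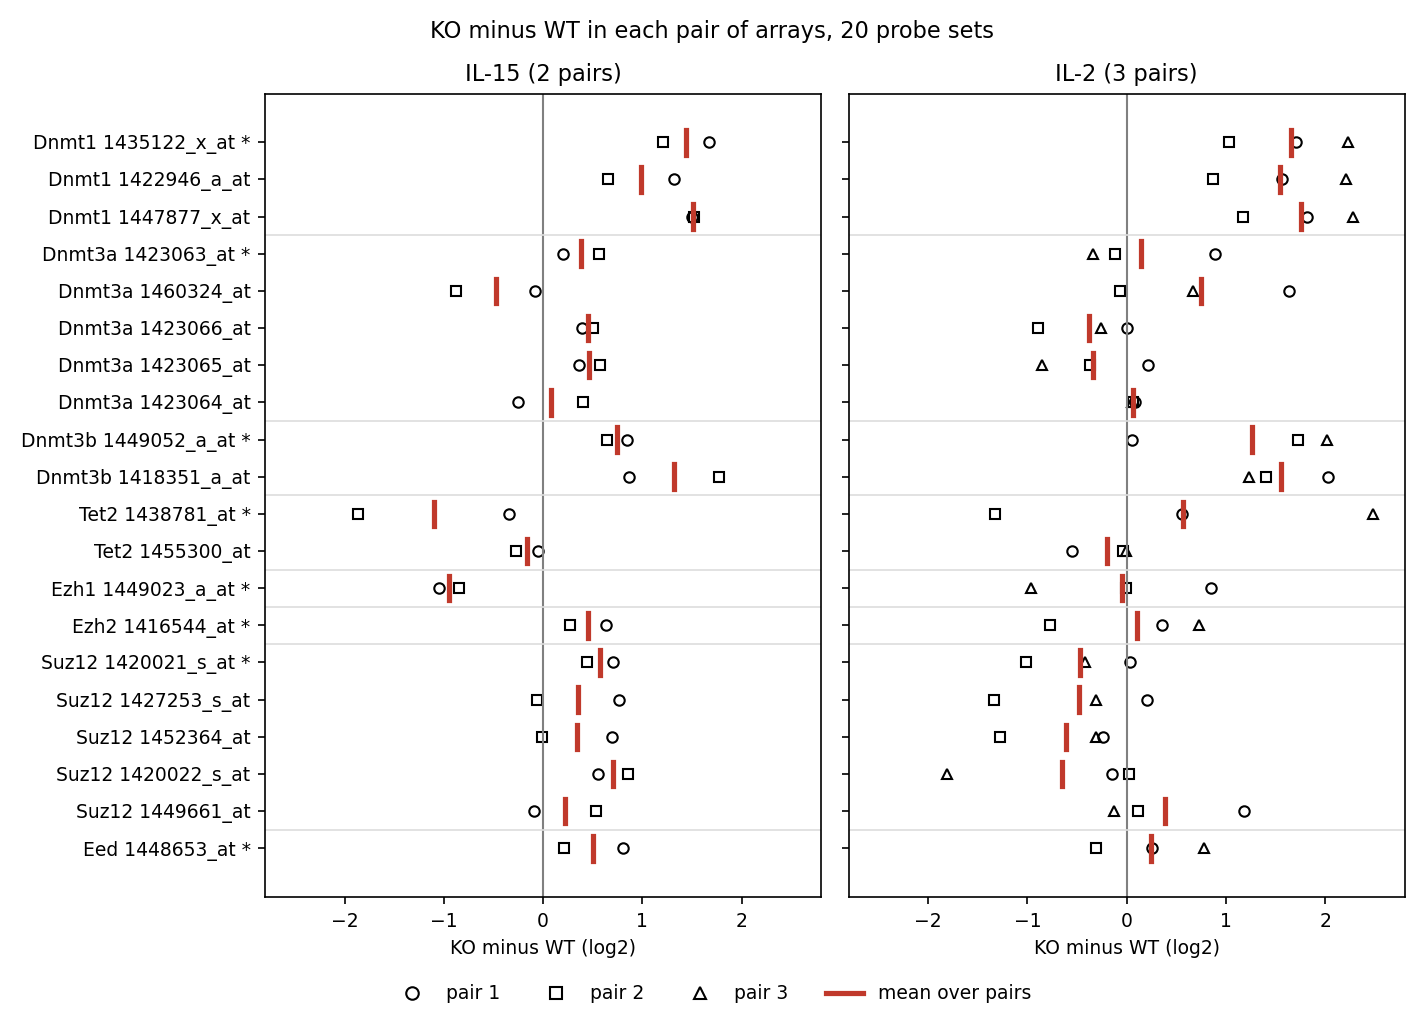
KO minus WT difference (log2, horizontal axis) in each numbered pair of arrays, for the 20 probe sets that reached log2 5 in at least 2 arrays, in IL-15 (left) and IL-2 (right), with the mean over pairs as a red bar and the probe set that stands for the gene starred. The 3 Dnmt1 and 2 Dnmt3b probe sets lie right of 0 in every pair, while the starred sets of Dnmt3a, Tet2, Ezh1, Ezh2, Suz12 and Eed spread to both sides in IL-2.

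Whether the loss of Runx3 acted differently in the 2 cytokines was tested as the KO effect in IL-15 minus that in IL-2. None of the 9391 genes was called by limma (0%), although 1106 (11.8%) had an unadjusted p under 0.05. Among members the difference was 1.04 for Suz12 (95% interval -0.02 to 2.11, unadjusted p = 0.0537, adjusted p = 0.429), -0.91 for Ezh1 (adjusted p = 0.567) and -1.67 for Tet2 (95% interval -4.23 to 0.89, adjusted p = 0.573). For Dnmt1 it was -0.21 (95% interval -1.36 to 0.93, adjusted p = 0.891). The intervals span more than a doubling for every member, so equal effects in both cytokines were not shown.

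IL-15 was compared with IL-2 within each genotype. Sex of the mice and cytokine cannot be told apart in these differences, as said above. No pair of arrays joins the cytokines and the spread within groups had been reduced before deposit, so these p-values are too small by an unknown amount. Of all tested genes 46.1% were called in KO and 48% in WT cells. Among the 8 members, 3 were called in KO cells (2 higher in IL-15 and 1 lower, against 23.6% and 22.5% of all genes) and 4 in WT cells (3 higher and 1 lower, against 29.4% and 18.7% of all genes). With quantile normalization the median of all genes moved by -0.12 in KO and by -0.23 in WT cells, and calls that were higher in IL-15 made up 42.4% in place of 51.2% in KO and 46.6% in place of 61.1% in WT cells.

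Suz12 was the only member called between cytokines in both genotypes. All KO and WT arrays in IL-15, at 11.56 to 12.27, lay above all arrays in IL-2, at 9.68 to 10.70. It was higher in IL-15 by 2.25 in KO (95% interval 1.79 to 2.71, adjusted p = 8.07e-05) and by 1.20 in WT cells (95% interval 0.74 to 1.66, adjusted p = 0.0014). Its 3 bright probe sets were all called in both genotypes, by 1.85 to 2.25 in KO and by 0.90 to 1.37 in WT cells. Of all 17729 tested probe sets, 8337 were called in KO and 8802 in WT cells. The dimmer sets 1420022_s_at and 1449661_at did not pass, with 1420022_s_at at -0.59 in WT cells, and 1420020_at stayed near 2.3. When the probe sets of a gene were averaged, dim ones included, Suz12 differed by 0.52 in WT cells, under 1.5-fold, and was not called there. Some of the other PRC2 genes followed the same direction. Ezh1 was higher in IL-15 2.82-fold in WT cells (adjusted p = 0.00376), a call that was lost with averaged probe sets (difference 0.58), and differed by 0.59 in KO cells (adjusted p = 0.138). Eed was higher in IL-15 by 0.67 in KO (adjusted p = 0.033) and by 0.41 in WT cells (adjusted p = 0.153). The Eed call in KO cells was lost in 4 of the 10 fits that left out 1 array. It was also lost with averaged probe sets (difference 0.29, adjusted p = 0.082). The difference of Ezh2 was 0.72 in KO (adjusted p = 0.0559) and 0.37 in WT cells (adjusted p = 0.284). All 4 PRC2 differences were positive in both genotypes, with medians of 0.69 in KO and 0.80 in WT cells, against -0.08 and 0.18 over all tested genes.

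The Suz12 promoter is shown as the other one with E2F letters. It lies at chr11:79992856-79993105 on the plus strand of GRCm38.p6 (RefSeq), the 250 bases before the start, with TTTCCCGC, 219 to 212 bases before the start, in capitals. No RUNX letters occurred in it.
Suz12: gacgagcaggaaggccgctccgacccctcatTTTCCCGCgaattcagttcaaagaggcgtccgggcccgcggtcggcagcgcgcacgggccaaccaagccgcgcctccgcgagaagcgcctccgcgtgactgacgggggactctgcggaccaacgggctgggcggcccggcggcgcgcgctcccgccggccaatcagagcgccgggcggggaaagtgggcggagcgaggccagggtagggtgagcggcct

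Of the DNA methyltransferases, Dnmt3a was called as lower in IL-15 in WT cells and Dnmt3b in KO cells, and Dnmt1 in neither. Dnmt3a fell by 0.79 in IL-15 in WT cells (adjusted p = 0.0224, a call lost in 4 of the 10 fits that left out 1 array), and differed by -0.55 in KO cells (adjusted p = 0.0825). Of its 5 probe sets, 4 were lower in IL-15 in WT cells and called, where 8802 of all 17729 tested probe sets were called. The set 1460324_at differed by 0.48 there (adjusted p = 0.224). In KO cells all 5 were lower in IL-15 and 2 were called, against 8337 of all 17729. The 2 were 1423065_at (difference -0.63, adjusted p = 0.0287) and 1423064_at (difference -1.18, adjusted p = 0.0004), in the fit over single probe sets. Dnmt3b was lower in IL-15 in KO cells (difference -0.96, adjusted p = 0.0481) and differed by -0.44 in WT cells (adjusted p = 0.319). The Dnmt3b call in KO cells was lost in 7 of the 10 fits that left out 1 array. It was also lost with arrays centred on their medians (adjusted p = 0.0663) and without the limit of log2 5 (adjusted p = 0.0809). Dnmt1 differed by -0.41 in KO (adjusted p = 0.168) and by -0.19 in WT cells (adjusted p = 0.501), so neither passed. Of its 3 probe sets, 1447877_x_at was called as lower in IL-15 in KO cells (difference -0.59, adjusted p = 0.041), and 1422946_a_at differed by 0.036 in WT cells.

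Tet2 had the widest difference in WT cells, where IL-15 was above IL-2 by 2.72 (95% interval 1.23 to 4.21, adjusted p = 0.00807), or 6.58-fold. Its WT values in IL-2 (5.28, 6.21 and 4.31) lay near the limit of log2 5, so the size of this difference is uncertain. In KO cells the difference was 1.05 (95% interval -0.44 to 2.54, adjusted p = 0.211), and the difference between the genotypes was not called, as given above. Only 1438781_at showed this: the other Tet2 probe set differed by 0.10 in WT (adjusted p = 0.61) and by 0.13 in KO cells (adjusted p = 0.498). Without WT IL-15 replicate 2, Tet2 in WT cells was not called (adjusted p = 0.0637).

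**Figure D3:**
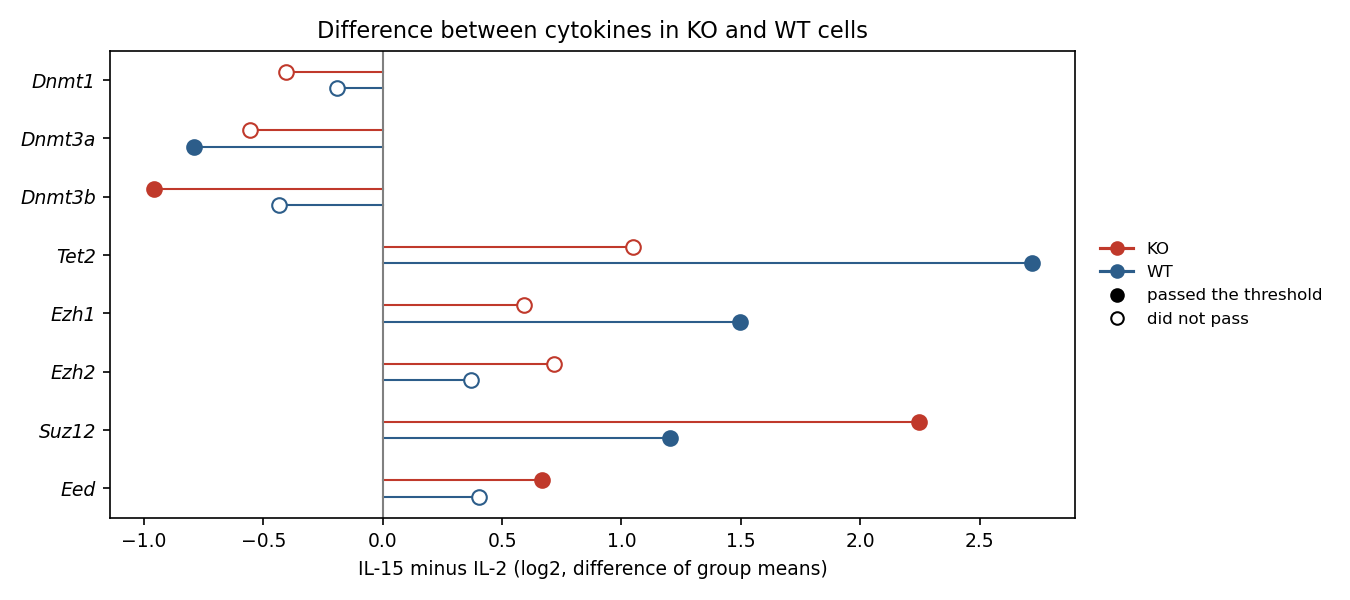
IL-15 minus IL-2 difference of group means (log2, horizontal axis) for the 8 tested genes in KO (red, upper) and WT (blue, lower) cells, filled where the gene passed the threshold. Suz12 lies at 2.25 in KO and 1.20 in WT and Tet2 at 1.05 in KO and 2.72 in WT, whereas all 3 DNA methyltransferases lie left of 0.

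The order of the 4 group means differed between members. For Dnmt1 it was KO in IL-2 (12.65), KO in IL-15 (12.24), WT in IL-2 (10.99) and WT in IL-15 (10.80), with arrays that overlapped between cytokines and not between genotypes. For Suz12 it was KO in IL-15 (12.20), WT in IL-15 (11.63), WT in IL-2 (10.42) and KO in IL-2 (9.95), where only the last 2 overlapped. For Tet2 it was WT in IL-15 (7.98), KO in IL-15 (6.88), KO in IL-2 (5.84) and WT in IL-2 (5.27), and each of the 3 lowest groups overlapped its neighbour in this order. For these 3 members, which had the widest range of group means, the tested genes with the most similar course over the 10 arrays were sought among 5780 genes whose group means ranged over at least 1. For Dnmt1 they were Pole4 (Pearson r = 0.994), a DNA polymerase epsilon subunit, Rhno1 (0.993) and Setd4 (0.985). For Suz12 they were Inpp4b (0.998), a phosphoinositide phosphatase, Shprh (0.994) and Fam76b (0.992), and for Tet2 they were Mettl5 (0.987), Washc3 (0.979) and Snrpb2 (0.975). These values describe 10 arrays that mirror each other in pairs, which leaves them fewer free directions than 10 separate arrays would have.

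Genes that work with the members were examined in lists by function. In IL-15 none of their genes was called for genotype, against 1.3% of all tested genes. In IL-2, among 7 tested partners of DNA methylation, only Uhrf1, which guides Dnmt1 to newly replicated DNA, was called, against 19.7% of all tested genes. It read 12.86, 12.90 and 13.74 in KO against 10.89, 10.85 and 10.01 in WT arrays, and rose by 2.59 ± 0.999 (SD, 3 pairs, adjusted p = 0.0117). This call was lost without pair 1 (difference 2.90, adjusted p = 0.055) and without the limit of log2 5 (adjusted p = 0.0737). In IL-15 Uhrf1 read 11.36 and 10.60 in KO against 8.42 and 9.17 in WT arrays, which differed by 2.18 ± 1.07 without passing (SD over 2 pairs, adjusted p = 0.133). The groups did not overlap in either cytokine. None of the 7 tested readers of methylated CpG was called in IL-2, where the median over the list was 0.59 (0.11 over all genes).

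Of 8 tested genes linked to demethylation, 2 rose and 2 fell in KO cells in IL-2, against 10.5% of all tested genes higher and 9.17% lower. Gadd45a and Gadd45g, stress-induced genes that have been tied to active demethylation, went opposite ways. Gadd45a rose by 2.06 ± 1.31 (adjusted p = 0.0263) and Gadd45g fell, with a difference of -2.12 ± 0.75 (adjusted p = 0.00864). The WT values of Gadd45a in IL-2 (4.97, 5.69 and 6.27) lay near the limit of log2 5, so the size of its rise is uncertain. Idh2 and Idh1 supply 2-oxoglutarate, the cosubstrate of TET enzymes, in mitochondria and in the cytosol. Idh2 rose by 1.67 ± 0.19 (adjusted p = 0.0067) and Idh1 fell, with a difference of -1.78 ± 0.63 (SD, 3 pairs each, adjusted p = 0.0135). Gadd45a and Idh1 were not called without pair 1 (differences 1.39 and -1.55) or without pair 2 (2.11 and -1.65).

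Of the 9 accessory genes of PRC2, 2 rose and 1 fell in KO cells in IL-2, against 10.5% of all tested genes higher and 9.17% lower. Phf19, a Polycomb-like protein that brings PRC2 to chromatin, read 7.47, 7.33 and 7.55 in KO against 5.01, 5.15 and 4.93 in WT arrays. It rose by 2.42 ± 0.22 (SD, 3 pairs, adjusted p = 0.00303), with no overlap and little spread between pairs. Its WT values lay near the limit of log2 5, so the size of this rise is uncertain. Epop rose by 1.32 ± 0.62 (adjusted p = 0.0308), and Mtf2, another Polycomb-like protein, fell (difference -1.32 ± 0.67, adjusted p = 0.0374). Both calls were lost in 8 of the 10 fits that left out 1 array, where the differences lay between 0.99 and 1.61 for Epop and between -1.67 and -0.996 for Mtf2, and both were lost without the limit of log2 5. The histone-binding core partners Rbbp4 and Rbbp7 differed by 0.78 (adjusted p = 0.0706) and 0.24 (adjusted p = 0.543), and Jarid2 by -0.28 (adjusted p = 0.46). Of the demethylases of lysine 27, the X-linked Kdm6a fell (difference -1.43 ± 0.56, adjusted p = 0.0176), while Kdm6b differed by 0.23 ± 1.32 (adjusted p = 0.769). Kdm6a was not called without pair 2 (difference -1.25) or pair 3 (-1.30). The calls of Mtf2 and Kdm6a were lost when the probe sets of a gene were averaged, with differences of -0.90 (adjusted p = 0.0739) and -0.64 (adjusted p = 0.0735).

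Of 17 tested genes of the other Polycomb complex, PRC1, 4 rose and 1 fell in KO cells in IL-2, against 10.5% of all tested genes higher and 9.17% lower. Cbx2 and Cbx6 bind trimethylated lysine 27 through a chromodomain. Cbx2 read 7.99, 7.86 and 7.82 in KO against 5.01, 5.14 and 5.18 in WT arrays and rose by 2.78 ± 0.18 (adjusted p = 0.00169). The WT values of Cbx2 lay near the limit of log2 5, so the size of its rise is uncertain. Cbx6 rose by 2.12 ± 0.52 (adjusted p = 0.00694). Bcor and Kdm2b, of a variant PRC1 that binds unmethylated CpG islands through Kdm2b, rose by 1.53 ± 0.64 (adjusted p = 0.0171) and 1.38 ± 0.33 (SD, 3 pairs each, adjusted p = 0.0131). Without pair 1 the calls of Cbx6, Bcor and Kdm2b were lost, with differences of 1.93, 1.16 and 1.20. The gene that fell was Pcgf5 (difference -0.90 ± 0.26, adjusted p = 0.0446). The 3 tested genes of the histone H2A deubiquitinase complex were not called, against 19.7% of all tested genes in IL-2.

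Genes of DNA replication and proliferation were called in part in IL-2 and not in IL-15. Of 20 tested genes of this list, 13 rose and 0 fell in KO cells in IL-2, against 10.5% of all genes higher, and their median difference was 1.63. In IL-15, 0 were called, all 20 differences were positive, and the median was 1.18. E2f2 rose by 3.12 ± 0.77 (adjusted p = 0.00313), E2f8 by 2.86 ± 0.69 (adjusted p = 0.00413), Cdt1, which licenses replication origins, by 1.90 ± 0.20 (adjusted p = 0.00499) and Cdc6, its partner in this step, by 1.95 ± 0.83 (SD, 3 pairs each, adjusted p = 0.036). The cell division markers Mki67 (difference 0.49 ± 1.15, adjusted p = 0.448) and Top2a (0.26 ± 1.42, adjusted p = 0.765) did not pass in IL-2, and their pairs went both ways. Without pair 1, 2 or 3 of IL-2, the calls in this list numbered 3, 6 and 5, with medians of 1.88, 1.80 and 1.08. The part of proliferation in the Dnmt1 difference was not tested.

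Among genes known as targets of silencing, levels were mostly too low to follow. Of 10 genes that Polycomb silences in many tissues, 3 were tested. Cdkn2b, an inhibitor of the cell cycle, was the only one called in IL-2, against 19.7% of all tested genes (9.17% lower). There it read 11.56, 12.45 and 11.90 in KO against 14.43, 13.54 and 14.09 in WT arrays (difference -2.05 ± 0.90, SD, 3 pairs, adjusted p = 0.0168). It was not called without pair 1 (difference -1.64) or pair 3 (-1.98). Of 12 germline genes that DNA methylation keeps silent in somatic cells, 0 reached log2 5 in 2 arrays, and the highest value in a single array was 6.49, for Slc25a31. DNA methylation and histone marks were not measured in these samples.

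**Figure D4:**
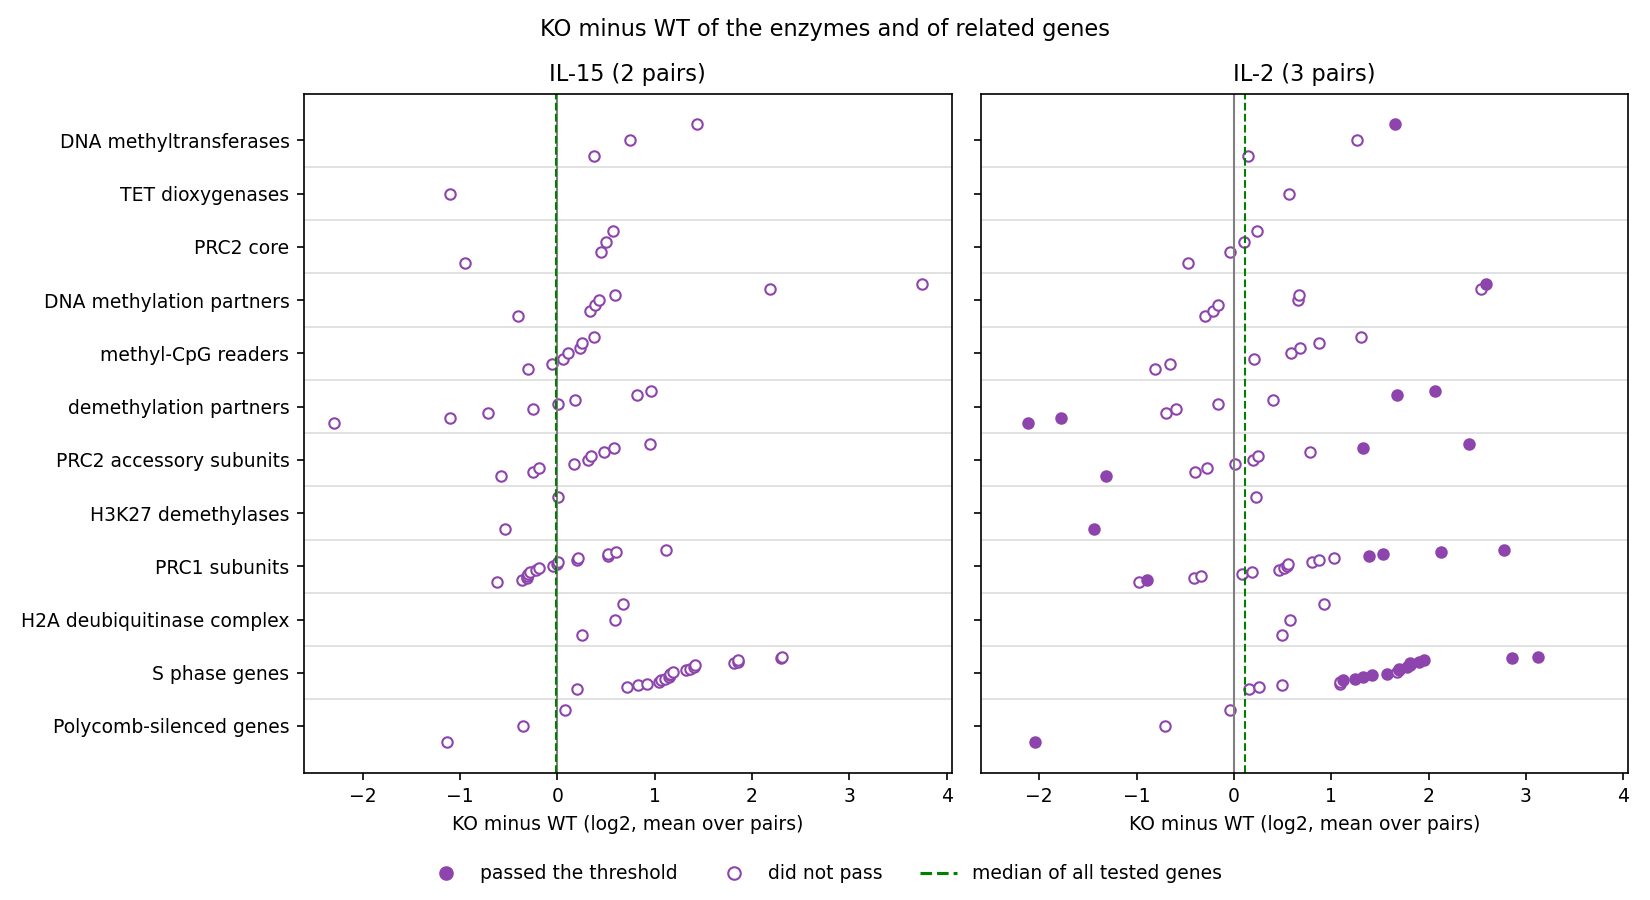
KO minus WT difference (log2, mean over pairs, horizontal axis) of the tested genes of each list in IL-15 (left) and IL-2 (right), filled where the gene passed the threshold, with the median of all tested genes dashed in green (-0.01 in IL-15 and 0.11 in IL-2). The replication list lies right of 0 throughout, with 13 of 20 genes filled in IL-2 and none in IL-15.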

How the data were processed

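RNA was measured on Affymetrix mouse arrays. The deposited values are log2 signals, normalized by the authors with GC-RMA in Partek software (no versions given in the sources used here), and they were used without further scaling. The sums of same-numbered KO and WT arrays of a cytokine differed by at most 0.00013 in IL-15 and 0.00014 in IL-2 for every probe set, so pair differences had been removed before deposit, a step that is not described in the sources used here. Nothing says what joined the arrays of a pair. KO was therefore compared with WT with the pair as a block (3 residual degrees of freedom) and IL-15 with IL-2 on 4 group means (6 residual degrees of freedom), in limma 3.58.1 under R 4.3.3, all 10 arrays in 1 fit. The fits of KO against WT were also run on simulated data with known changes, and the other comparisons were not. Depth does not apply to arrays, whose number limits the precision.

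Of 45101 probe sets, 34958 had 1 gene symbol in the platform's gene table, 932 had several and were not used, and 9211 were not listed there. Identifiers of 34754 matched the RefSeq annotation, which changed 0 symbols. Named genes were the members, partners fixed by name, and at most 4 called genes a list by size of change. Pcgf5 was added after its values were seen, to complete a count. Outside this rule Mki67 and Top2a were also named, though not called, as were Phc1, Phc2 and Mbd2 for their opposite pairs. The members and lists were chosen with earlier results of these data known. Alternatives changed the block, the limit, the scaling, the gene value, the threshold (the methods' unadjusted p) and the arrays included.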

Additional observations from a re-analysis of the deposited data

Results flagged for a closer look

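In 4 of the 76 tested genes of the lists by function (5.26%), Kdm2b, Phc1, Phc2 and Mbd2, KO was below WT in every pair in IL-15 and above it in every pair in IL-2, as in 3.99% of all tested genes. Of Kdm2b the level was 12.78 and 12.90 in KO against 13.21 and 13.09 in WT arrays in IL-15, and 13.07, 12.78 and 12.80 in KO against 11.31, 11.60 and 11.59 in WT arrays in IL-2. The KO minus WT difference was -0.31 ± 0.18 in IL-15 (SD, 2 pairs) and 1.38 ± 0.33 in IL-2 (SD, 3 pairs), so that the effect in IL-15 minus that in IL-2 was -1.69. The same quantity was -1.65 for Phc2 (adjusted p = 0.339) and -1.17 for Phc1 (adjusted p = 0.432), both subunits of PRC1, and -0.64 for Mbd2, a reader of methylated CpG (adjusted p = 0.562). The test of this difference over all genes in limma called none of the 4, and the adjusted p of Kdm2b was 0.258.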

How the results depend on the processing

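The number of genes called for KO against WT depended on the fit more than on the scaling. In IL-15, the 122 calls became 1321 without the pair as a block, 0 without the limit on low values, 44 with the mean of a gene's probe sets and 1269 at an unadjusted p, and 0 to 95 when 1 array was left out. Members called there were 0, but 1 (Dnmt1) without the block (adjusted p = 0.0072) or at an unadjusted p. In IL-2, the 1851 calls became 3803 without the pair block, 842 without the limit, 2924 over single probe sets, 3391 at an unadjusted p, and 537 to 1525 without 1 array. The 1 member called became 2 (Dnmt1 and Dnmt3b) without the block, with averaged probe sets or at an unadjusted p, and 0 without the limit. It stayed 1 in each fit that left out 1 array, but without either array of pair 1 this was Dnmt3b and not Dnmt1. For the KO effect in IL-15 minus that in IL-2, the 0 calls became 1157 without the block, 4 with a limit of log2 6, 1106 at an unadjusted p and 0 to 1 without 1 array, and the 0 members became 1 without the block (Suz12, adjusted p = 0.0484). In that comparison the Dnmt1 difference was 0.0032 after quantile normalization. The labels number the arrays, but what the pairing rests on is not given.

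For IL-15 against IL-2, the 4326 calls in KO became 8337 over single probe sets and 3370 to 4385 without 1 array, and the 4512 calls in WT became 8802 and 3519 to 4581. Members called in KO were 3, but 5 after quantile normalization and 1 to 3 without 1 array. Members called in WT were 4, but 2 with averaged probe sets, where Ezh1 differed by 0.58 and Suz12 by 0.52, and 2 to 4 without 1 array. Calls higher in KO in IL-15 were 35.2% of calls, and 46.6% after quantile normalization. Without 1 array, differences between KO and WT in IL-2 ranged from -0.23 to 0.39 for Dnmt3a, -0.39 to 1.52 for Tet2, -0.49 to 0.42 for Ezh1, -0.21 to 0.54 for Ezh2 and -0.026 to 0.51 for Eed. For the difference of the KO effects they ranged from -0.53 to 0.071 for Dnmt1, -0.0074 to 0.61 for Dnmt3a, -0.092 to 0.66 for Ezh2 and -0.031 to 0.56 for Eed. Of the partner genes named for KO against WT in IL-2, Uhrf1, Gadd45a, Idh1, Epop, Mtf2, Cbx6, Bcor, Kdm2b, Cdc6 and Cdkn2b were not called without pair 1, Gadd45a, Idh1, Mtf2, Kdm6a and Cdc6 without pair 2, and Epop, Kdm6a, Cdc6 and Cdkn2b without pair 3. Without either IL-15 pair, Epop and Mtf2 were not called. Without the limit on low values, Uhrf1, Gadd45a, Idh1, Epop, Mtf2, Kdm6a, Bcor, Cdc6 and Cdkn2b were not. Why calls changed was not tested.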
